A study of Mus musculus with 12 samples.

Results

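The transcripts of 7 cyclin-dependent kinase (CDK) inhibitors and 3 D-type cyclins were followed in 4T1 cells, a mouse mammary carcinoma line, grown with a targeted or an unmodified Etv4 gene on plastic or inside collagen. The members were taken by symbol, Cdkn1a, Cdkn1b, Cdkn1c, Cdkn2a, Cdkn2b, Cdkn2c, Cdkn2d, Ccnd1, Ccnd2 and Ccnd3, and all 10 were among the 31017 genes of the deposited tables. Of these 10 members, 7 passed the filter on low counts, as did 13763 genes in all, and Cdkn1c, Cdkn2a and Cdkn2b did not. The study set 4T1 cells edited with guide RNAs against Etv4, which encodes an ETS-family transcription factor, beside cells that received control guide RNA. Edited clone 1 and edited clone 2 were single clones, and the control cells were pools of clones. A difference between a clone and the control can therefore also be a property of that clone. Each was cultured as a monolayer on plastic (2D) or embedded in collagen I gel (3D), with 2 polyadenylated RNA libraries in each of the 6 groups. The labels name alternative collagen concentrations without saying which 3D library had which, so the 3D libraries, those of 1 group included, may differ in it. Gels were digested with collagenase at 37°C before RNA was taken and monolayers were not, and each format has its own count table. Format, digestion and table therefore change together and their parts cannot be told apart.

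D cyclins switch on CDK4 and CDK6, which phosphorylate the retinoblastoma protein, release E2F transcription factors and so let a cell enter S phase. The INK4 inhibitors (p16 and p15 from Cdkn2a and Cdkn2b, p18 from Cdkn2c, p19Ink4d from Cdkn2d) bind CDK4 and CDK6 directly, while the Cip/Kip inhibitors (p21 from Cdkn1a, p27 from Cdkn1b, p57 from Cdkn1c) bind cyclin-CDK complexes and block CDK2. In mammary epithelium and its tumours, cyclin D1 is the D cyclin best known for driving growth, and p21 is a classic target of p53 that also responds to stress and to growth-factor signals.

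The 2D libraries held 12.3 to 18.7 M counts and the 3D libraries 26.5 to 33.2 M. Genes with a count numbered 13459 to 13875 in 2D and 17135 to 17595 in 3D. The predicted gene Gm26917 took 1.75% to 2.03% of the counts in 2D and 10.9% to 14.95% in 3D. The formats thus differ in depth and make-up, and the part of this in their differences was not tested. Levels are counts per M (CPM) after scaling by the trimmed mean of M values, and differences are log2 fold changes with their standard error (SE) from edgeR's quasi-likelihood test, two-sided, with Benjamini-Hochberg adjustment over all genes tested and a threshold of 0.05. The labels do not say whether the 2 libraries of a group are separate cultures, so the p-values measure the spread between these libraries. In RNA from whole cultures fewer cells with a transcript and less of it per cell cannot be told apart. Etv4 RNA remained present in the edited clones, at 69.8 and 69.1 CPM in clone 1, 86.6 and 91.5 CPM in clone 2 and 94.7 and 99.4 CPM in control cells in 3D. On plastic it stood at 49.8 and 49.2 CPM in clone 1, 49.2 and 46.0 CPM in clone 2 and 78.1 and 76.0 CPM in control cells. A count over the whole gene does not show whether the edited transcript still encodes a protein. Markers of other cell types were low beside the epithelial keratins and adhesion genes: 8 leukocyte markers summed to 7.77 to 11.6 CPM in 3D and 1.75 to 5.46 CPM in 2D, 7 fibroblast markers to 19.9 to 23.8 CPM in 3D and 4.11 to 7.39 CPM in 2D, 5 endothelial markers to 3.53 to 5.86 CPM in 3D and 8.53 to 14.9 CPM in 2D, and 6 epithelial markers to 2220 to 2780 CPM in 3D and 2610 to 4040 CPM in 2D. The part of the first 3 of these lists in any difference between formats was not tested.

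The widest difference among the members was that of Cdkn1a between formats. Cdkn1a was low on plastic and abundant in collagen, in clone 1, clone 2 and control cells alike. In each of them Cdkn1b and Ccnd3 were called higher in collagen, and Cdkn2c and Ccnd1 lower. The Ccnd1 and Ccnd3 calls in the clones depended on the settings, as given below. Between formats 75.1%, 79.5% and 77.2% of all genes were called in clone 1, clone 2 and control cells. Between edited and control cells, Cdkn2c was higher in both clones in both formats, and Cdkn2d was higher in clone 1 in both formats and in clone 2 on plastic. Cdkn1b was higher in clone 2 and not in clone 1. In collagen the clone 2 calls of Cdkn2c and Cdkn1b were lost with each chromosome centred on its own median. That of Cdkn2c was also lost when some single libraries were left out. Ccnd1 was the most abundant D cyclin per length of exon in all 12 libraries, and its 6 group means spanned 0.39 log2 units, the smallest range of the tested members, against 6.18 for Cdkn1a.

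**Figure D1:**
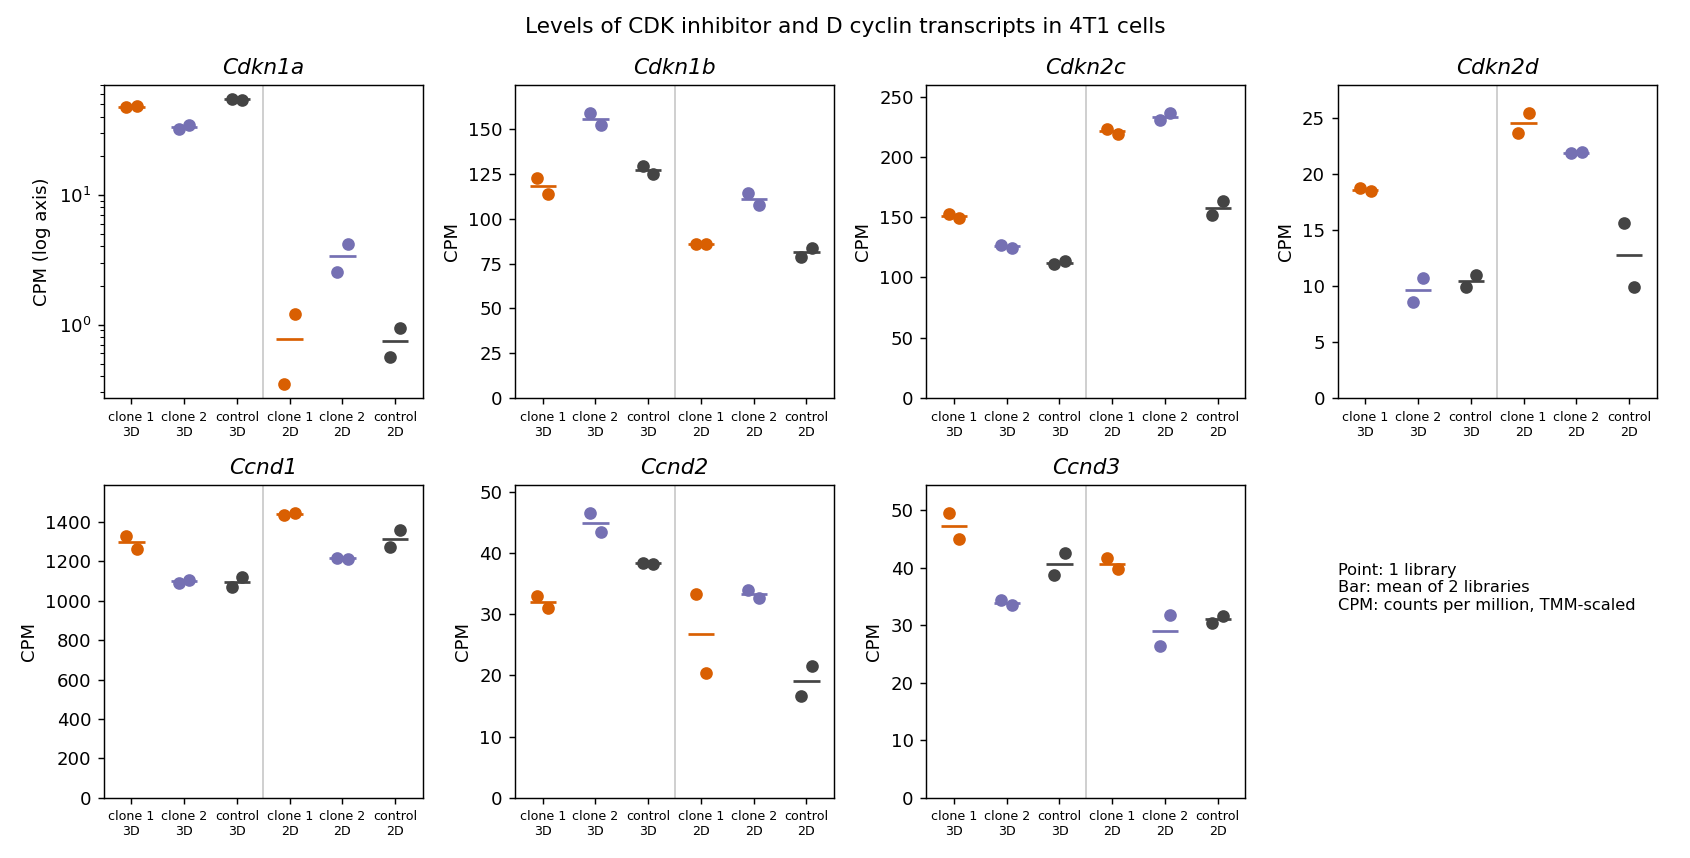
CPM (vertical axes, logarithmic for Cdkn1a) of the 7 tested members in the 6 groups, with 1 point per library and a bar at the mean of 2 libraries. Cdkn1a lies between 32.4 and 54.7 CPM in the 3D libraries and between 0.349 and 4.20 CPM in the 2D libraries, while Cdkn2c lies between 111 and 153 CPM in 3D and between 152 and 236 CPM in 2D.

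Cdkn1a, which encodes the Cip/Kip inhibitor p21, lies on chromosome 17 (mm10, 29090976 to 29100727, plus strand, 4 exon blocks merged over its transcripts). On the opposite strand AC167363.2, which is not among the counted genes, overlaps 7.68% of the Cdkn1a exon length. Cdkn1a had 47.5 and 48.2 CPM in clone 1, 32.4 and 34.4 CPM in clone 2 and 54.7 and 54.3 CPM in control cells in 3D. In 2D it had 0.349 and 1.21 CPM in clone 1, 2.55 and 4.20 CPM in clone 2 and 0.559 and 0.944 CPM in control cells, from 5 and 15, 47 and 59, and 8 and 14 counts. All 6 collagen libraries were above all 6 plastic libraries. The order in collagen was control, clone 1, clone 2 with no overlap, and on plastic clone 2 was above clone 1 and control, whose values overlapped. Against 2D, Cdkn1a in 3D rose by a log2 fold change of 5.99 ± 0.21 in clone 1 (adjusted p = 3.58e-19), 3.35 ± 0.16 in clone 2 (adjusted p = 1.08e-16) and 6.16 ± 0.20 in control cells (adjusted p = 9.24e-20), folds of 63.5, 10.2 and 71.7. The clone 1 and control values rest on few counts on plastic. Leaving out 1 library gave log2 values of 5.31 to 7.08 in clone 1, reached without clone 1 2D replicate 1 and without clone 1 2D replicate 2. It gave 2.99 to 3.71 in clone 2 and 5.85 to 6.6 in control cells. Large differences between formats were not particular to Cdkn1a: 627 of the 13763 genes tested had a larger positive log2 change in control cells, and 415 of these were among the 9164 genes whose exons overlap no other gene of the tables.

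Clone 2 departed from control cells in opposite directions in the 2 formats for Cdkn1a. In 3D it was lower by a log2 change of -0.71 ± 0.10 (adjusted p = 4.13e-06), and in 2D it was higher by 2.11 ± 0.35 (adjusted p = 4.12e-05), with no overlap in either format. The difference of these changes, the interaction of clone and format, was -2.82 ± 0.36 (adjusted p = 2.99e-06). In clone 1 the changes against control were -0.19 ± 0.10 in collagen (adjusted p = 0.123) and -0.01 ± 0.52 on plastic (adjusted p = 1), and the SE in 2D leaves changes of a log2 unit possible. Fitted on the 3D libraries alone, the clone 1 value in 3D was -0.20 with an adjusted p of 0.000561. Over all its tested genes, chromosome 17 moved by a median of 0.26 in clone 1 against control in 3D, and with each chromosome centred on its own median the Cdkn1a value in clone 1 became -0.45 (adjusted p = 0.000671).

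The RefSeq promoter table for GRCm38.p6 matched 7 of the 10 members, with 11 windows of 300 bases (250 before and 50 after a transcript start). The Cdkn1a windows are shown because this gene moved most. The capitals in the first mark CATG, any 6 bases and CATG again, a layout of a p53 response element. It starts at position -48 from the transcript start of that window. The second window surrounds another transcript start further downstream and holds no such layout. Its capitals mark GC boxes (GGGCGG on either strand), the sequence bound by Sp1-family factors.
Cdkn1a, chr17:29090729-29091028, plus strand: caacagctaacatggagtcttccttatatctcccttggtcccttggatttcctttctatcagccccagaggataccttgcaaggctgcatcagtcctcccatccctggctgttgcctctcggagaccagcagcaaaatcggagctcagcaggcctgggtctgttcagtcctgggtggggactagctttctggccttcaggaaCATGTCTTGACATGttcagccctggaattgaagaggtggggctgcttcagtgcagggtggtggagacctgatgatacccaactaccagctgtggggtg
Cdkn1a, chr17:29093519-29093818, plus strand: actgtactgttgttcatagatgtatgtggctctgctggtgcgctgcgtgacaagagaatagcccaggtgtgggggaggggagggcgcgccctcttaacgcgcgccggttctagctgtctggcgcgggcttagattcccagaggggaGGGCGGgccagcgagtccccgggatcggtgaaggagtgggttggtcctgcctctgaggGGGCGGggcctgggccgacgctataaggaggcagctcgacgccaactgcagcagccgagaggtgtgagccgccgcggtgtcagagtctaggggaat
The p53 layout in this exact spelling was in 0.712% of the 32851 windows of the table and in 1 of the 11 member windows, and a GC box was in 35.7% of all windows. Other spellings of a p53 element were not searched for, so 0.712% does not tell how rare p53 elements are among the windows. The ETS core GGAAGT, the kind of sequence that Etv4 binds, was in 23.8% of all windows on either strand and in none of the Cdkn1a windows. Among the member windows it was found in 1 of Ccnd3, and the AP-1 site TGANTCA (7.81% of all windows) in none. These are matches of letters and say nothing of binding in these cells.

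Genes of the p53 pathway and transcription factors that act on the members moved in both directions between formats. Of 18 tested genes of the p53 list (Trp53 and textbook p53 targets other than Cdkn1a), 10 rose and 5 fell in 3D against 2D in clone 1, 11 rose and 7 fell in clone 2, and 10 rose and 6 fell in control cells, where the median log2 change was 0.40 beside 0.10 over all genes. In these comparisons 75.1%, 79.5% and 77.2% of all genes were called, so most genes of any list were called in one direction or the other. The smallest p-values in control cells belonged to Plk3 at 2.12 ± 0.09, Aen at -1.60 ± 0.08 and Plk2 at -1.21 ± 0.06, which point in different directions. Trp53 itself rose by 0.50 in clone 1, 0.77 in clone 2 and 0.81 in control cells. Mdm2, the ubiquitin ligase that restrains p53, rose by 0.36, 0.63 and 0.44 in the same order. RNA levels do not show whether these cells make a working p53 protein, which was not tested. Whether p53 acts on Cdkn1a in these cells was not tested either. Of 21 tested transcriptional regulators of the members, 13 rose and 5 fell in clone 1, 14 and 5 in clone 2, and 13 and 5 in control cells, beside the same shares over all genes. In control cells Jun (3.24 ± 0.06), Klf6 (1.71 ± 0.05) and Klf4 (5.10 ± 0.18) had the smallest p-values. Fos and Egr1, immediate-early genes chosen after their values were seen, had 379 ± 5.74 and 581 ± 16.1 CPM in 3D and 0.817 ± 0.562 and 0.997 ± 0.171 CPM in 2D in control cells (SD, n = 2). The part of the enzymatic digestion in these values was not tested.

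Cdkn1b, which encodes p27, lies on chromosome 6 (mm10, 134920401 to 134925513, plus strand) and overlaps no other annotated exon. It had 123 and 114 CPM in clone 1, 159 and 152 CPM in clone 2 and 130 and 125 CPM in control cells in 3D. On plastic the values were 85.9 and 86.1 CPM in clone 1, 114 and 108 CPM in clone 2 and 78.5 and 84.0 CPM in control cells. Clone 2 was highest within each format without overlap, and the only neighbours in the order of 6 groups that overlapped were clone 1 in 3D and clone 2 in 2D. The rise in 3D against 2D was 0.46 ± 0.06 in clone 1 (adjusted p = 1.74e-07), 0.48 ± 0.06 in clone 2 (adjusted p = 2.55e-08) and 0.65 ± 0.06 in control cells (adjusted p = 2.53e-10). Against control, Cdkn1b rose in clone 2 by 0.29 ± 0.06 in collagen (adjusted p = 0.00025) and by 0.45 ± 0.06 on plastic (adjusted p = 3.63e-06). In clone 1 the values were -0.11 ± 0.06 (adjusted p = 0.126) in collagen, or -0.12 with the 3D libraries alone (adjusted p = 0.0157), and 0.08 ± 0.07 (adjusted p = 0.34) on plastic. The median over chromosome 6 was 0.15 in collagen and 0.16 on plastic in clone 2, and with chromosomes centred the clone 2 values were 0.14 (adjusted p = 0.0768) in 3D and 0.29 (adjusted p = 0.000966) in 2D.

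p27 protein is controlled mainly by degradation, through the ubiquitin ligase built from Skp2, Cks1b, Skp1a, Cul1 and Rbx1. The turnover list held 12 tested genes, which were ligase parts for p27 and the D cyclins, the kinase Gsk3b and the ubiquitin-removing enzyme Usp22. In 3D against 2D, 8 of the 12 fell in each of clone 1, clone 2 and control cells, and 4, 4 and 3 rose. Over all genes 35.3%, 37.0% and 35.6% were called lower, and 75.1%, 79.5% and 77.2% in either direction. Skp2 fell by 0.47 in clone 1, 1.13 in clone 2 and 0.86 in control cells on the log2 scale. In control cells, the genes with the smallest p-values were Gsk3b at 1.98 ± 0.07, Skp1a at -1.02 ± 0.06 and Cks1b at -0.93 ± 0.06. In clone 2 against control in 3D, where 1 gene of the list rose and 2 fell beside 29.2% of all genes called, Skp2 was at -0.43 ± 0.06 (adjusted p = 1.95e-06). Protein levels were not measured.

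Cdkn1c, which encodes p57, and the paired INK4 genes Cdkn2a and Cdkn2b were close to silent. Cdkn2a and Cdkn2b, neighbours on chromosome 4 (mm10, 89274471 to 89294653 and 89306299 to 89311039), had 0 counts in all 12 libraries, of 258 M counts together. A count of 0 allows up to 3 counts, which is 0.0966 to 0.241 CPM in a library and covers counting error only. Cdkn2a yields both p16Ink4a and p19Arf, so neither product had a count. Mtap, an expressed neighbour (89137122 to 89181081), had 509 and 467 CPM in clone 1, 824 and 806 CPM in clone 2 and 746 and 749 CPM in control cells in 3D, and 511 and 499, 843 and 801, and 733 and 733 CPM in 2D. Clone 1 lay below the other groups in both formats, by -0.62 in 3D and -0.54 in 2D against control. Whether Cdkn2a and Cdkn2b are deleted or silenced in these cells was not tested. Cdkn1c had 3 counts in all, 1 in each of the clone 2 libraries in 3D and 1 in the second clone 2 library in 2D, so no comparison was made for it.

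Cdkn2c, which encodes the INK4 inhibitor p18, lies on chromosome 4 (mm10, 109660876 to 109667189, minus strand), and had the highest level per length of exon among the inhibitors in every group. It had 153 and 149 CPM in clone 1, 127 and 125 CPM in clone 2 and 111 and 113 CPM in control cells in 3D. The plastic libraries held 223 and 219 CPM in clone 1, 230 and 236 CPM in clone 2 and 152 and 163 CPM in control cells. Both clones were above control in both formats with no overlap, and across formats the only overlap in the order of groups was between control in 2D and clone 1 in 3D. Against control, Cdkn2c rose in clone 1 by 0.43 ± 0.05 in collagen (adjusted p = 2.28e-07) and 0.49 ± 0.05 on plastic (adjusted p = 5.87e-08), and in clone 2 by 0.16 ± 0.05 in collagen (adjusted p = 0.019) and 0.57 ± 0.05 on plastic (adjusted p = 1.19e-08). Against 2D, it fell in 3D by 0.55 ± 0.05 in clone 1, 0.89 ± 0.05 in clone 2 and 0.49 ± 0.05 in control cells on the log2 scale (adjusted p = 3.98e-10, 1.45e-14 and 6.48e-09). The clone 2 rise in 3D missed the threshold without control 3D replicate 1 (0.15), control 3D replicate 2 (0.18), clone 2 3D replicate 1 (0.15) or clone 2 3D replicate 2 (0.18). Chromosome 4 had a median of 0.14 in clone 2 in 3D, and with chromosomes centred the value was 0.03 (adjusted p = 0.773), and that on plastic 0.37.

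Cdkn2d, which encodes p19Ink4d, lies on chromosome 9 (mm10, 21288410 to 21291407, minus strand) and was below Cdkn1b and Cdkn2c per length of exon in every group. It had 18.7 and 18.5 CPM in clone 1, 8.60 and 10.7 CPM in clone 2 and 9.92 and 10.99 CPM in control cells in 3D. In 2D it had 23.6 and 25.4 CPM in clone 1, 21.9 and 21.9 CPM in clone 2 and 15.7 and 9.91 CPM in control cells. Clone 1 was above control in both formats, clone 2 was above control on plastic, and in collagen clone 2 and control overlapped. Against control, Cdkn2d rose in clone 1 by 0.83 ± 0.14 in collagen (adjusted p = 1.94e-05) and 0.94 ± 0.15 on plastic (adjusted p = 1.92e-05). In clone 2 it was at -0.12 ± 0.15 in collagen (adjusted p = 0.597) and rose by 0.78 ± 0.15 on plastic (adjusted p = 0.000259). The interaction in clone 2 was -0.90 ± 0.21 (adjusted p = 0.00317). The control libraries in 2D lay apart for this gene: without replicate 2 the clone 2 rise in 2D was 0.48 (adjusted p = 0.013), and the change of control cells in 3D against 2D, -0.29 ± 0.16 (adjusted p = 0.0976), was -0.58 without replicate 2 (adjusted p = 0.00132), 0.08 without replicate 1 and -0.37 with chromosomes centred (adjusted p = 0.0344). In 3D against 2D, Cdkn2d fell by 1.18 ± 0.15 in clone 2 (adjusted p = 3.48e-08) and 0.40 ± 0.14 in clone 1 (adjusted p = 0.0109) on the log2 scale. The clone 1 value missed the threshold without clone 1 2D replicate 2 (-0.34), clone 1 3D replicate 1 (-0.40) or clone 1 3D replicate 2 (-0.38), and with DESeq2 (-0.33, adjusted p = 0.0618).

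The windows of Cdkn2c and Cdkn2d that hold the most GC boxes, in capitals, are shown because these INK4 genes were called higher together in clone 1 in both formats and in clone 2 on plastic.
Cdkn2c, chr4:109666707-109667006, minus strand: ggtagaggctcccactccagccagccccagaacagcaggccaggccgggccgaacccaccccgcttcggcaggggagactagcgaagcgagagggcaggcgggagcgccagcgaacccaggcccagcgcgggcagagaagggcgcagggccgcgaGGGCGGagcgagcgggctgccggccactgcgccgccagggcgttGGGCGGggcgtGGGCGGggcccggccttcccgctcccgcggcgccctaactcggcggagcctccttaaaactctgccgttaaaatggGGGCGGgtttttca
Cdkn2d, chr9:21291160-21291459, minus strand: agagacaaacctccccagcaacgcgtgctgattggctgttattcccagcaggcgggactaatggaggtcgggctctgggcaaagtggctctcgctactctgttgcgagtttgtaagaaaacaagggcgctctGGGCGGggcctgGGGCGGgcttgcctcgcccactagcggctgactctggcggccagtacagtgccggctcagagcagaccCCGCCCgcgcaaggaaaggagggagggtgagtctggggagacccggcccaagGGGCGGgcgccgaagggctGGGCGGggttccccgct
The first holds 4 GC boxes and the second 5, and neither holds the ETS core, the AP-1 site or the p53 layout. A second Cdkn2c window held none of the 4 motifs. GC boxes were not particular to these genes. They were also in the windows of Cdkn2a (1 and 3) and Cdkn2b (1), which had 0 counts, of Cdkn1b (1) and of Ccnd3 (2 and 2).

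Divided by exon length, the make-up of the inhibitor pool differed between formats. Cdkn2c made up 52.3% of the summed CPM per kb of the 7 inhibitors in clone 1, 48.5% in clone 2 and 45.6% in control cells in 3D, and 70.4%, 68.9% and 69.1% in 2D (means, n = 2). Cdkn1a made up 12.5% in clone 1, 9.74% in clone 2 and 16.7% in control cells in 3D, and 0.187%, 0.752% and 0.249% in 2D. Cdkn1b made up 24.2%, 35.4% and 30.5% in 3D and 16.1%, 19.4% and 21.04% in 2D, in the same order of groups. The summed level was 106 to 109 CPM per kb in clone 1, 96.4 to 96.7 in clone 2 and 91.5 to 92.0 in control cells in 3D, and 117 in both libraries of clone 1, 126 to 127 in clone 2 and 83.8 to 85.7 in control cells in 2D. In each format the control libraries had the lowest sum, with no overlap with either clone. Shares of a sum move together, since a larger share of one gene lowers the others.

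**Figure D2:**
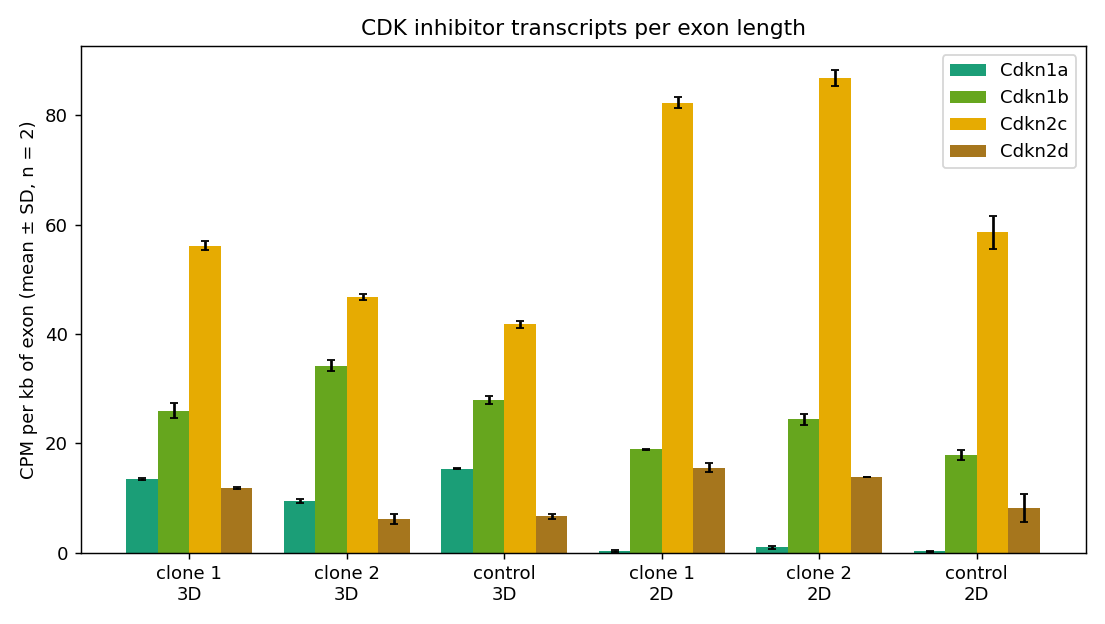
Mean CPM per kb of exon (vertical axis, bars with SD, n = 2) of the 4 tested inhibitors in the 6 groups. Cdkn2c has the tallest bar in every group, from 41.8 in control cells in 3D to 86.8 in clone 2 in 2D, and Cdkn1a stands at 9.41 to 15.4 in 3D and at 0.212 to 0.949 in 2D.

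Ccnd1, which encodes cyclin D1, lies on chromosome 7 (mm10, 144929931 to 144939925, minus strand), and made up 96.4% to 98.1% of the summed CPM per kb of the 3 D cyclins in every group. It had 1331 and 1265 CPM in clone 1, 1090 and 1108 CPM in clone 2 and 1071 and 1121 CPM in control cells in 3D. In 2D it had 1435 and 1445 CPM in clone 1, 1219 and 1212 CPM in clone 2 and 1274 and 1358 CPM in control cells. Clone 1 was highest in each format without overlap, and clone 2 overlapped control in 3D and lay below it in 2D. Against control, Ccnd1 rose in clone 1 by 0.24 ± 0.05 in collagen (adjusted p = 0.000256) and 0.13 ± 0.05 on plastic (adjusted p = 0.0421). In clone 2 it was at 0.00 ± 0.05 in collagen (adjusted p = 0.967) and -0.11 ± 0.05 on plastic (adjusted p = 0.0835). The plastic value of clone 2 passed the threshold with DESeq2 (-0.13, adjusted p = 0.022) and with scaling that leaves out the abundant predicted genes Gm26917 and Gm42418 (-0.15, adjusted p = 0.0231). It also did with the 2D libraries alone (-0.15, adjusted p = 0.0234), with the looser filter on low counts (-0.15, adjusted p = 0.0238), with chromosomes centred (-0.24, adjusted p = 0.000885), and without control 2D replicate 1 (-0.16) or clone 1 3D replicate 2 (-0.14). The median over chromosome 7 in clone 1 was 0.15 in collagen and 0.13 on plastic, and with chromosomes centred the clone 1 values were 0.10 (adjusted p = 0.152) and -0.00 (adjusted p = 1). The clone 1 call in 2D was also lost without control 2D replicate 1 (0.08), clone 1 2D replicate 1 (0.14) or 2 (0.13), clone 2 2D replicate 1 (0.13) or clone 2 3D replicate 1 (0.13) or 2 (0.13), with a replicate block (0.13, adjusted p = 0.0506) and with the 2D libraries alone (0.12, adjusted p = 0.0528). LTO1, listed as Oraov1, overlaps 23.4% of the Ccnd1 exon length and had 5.02 to 7.41 CPM in 3D and 10.2 to 15.2 CPM in 2D.

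In 3D against 2D, Ccnd1 fell by 0.15 ± 0.05 in clone 1 (adjusted p = 0.00918), 0.15 ± 0.05 in clone 2 (adjusted p = 0.0105) and 0.26 ± 0.05 in control cells (adjusted p = 3.87e-05) on the log2 scale. The clone values depended on the scaling, at -0.08 in clone 1 (adjusted p = 0.159) and -0.07 in clone 2 (adjusted p = 0.193) with DESeq2 size factors, under which the median over all genes was 0.15 and 0.19 in place of 0.08 and 0.11. DESeq2's own test gave -0.08 (adjusted p = 0.115) and -0.07 (adjusted p = 0.147). In clone 2 scaling without Gm26917 and Gm42418 (-0.10, adjusted p = 0.0777) and the looser filter (-0.10, adjusted p = 0.0768) also lost the call. Ccnd1 in clone 1 also missed the threshold without clone 1 3D replicate 2 (-0.10), and in clone 2 without clone 2 2D replicate 1 (-0.14), clone 2 3D replicate 1 (-0.13) or clone 2 3D replicate 2 (-0.14).

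Ccnd2, which encodes cyclin D2, lies on chromosome 6 (mm10, 127125162 to 127152193, minus strand). It had 33.1 and 30.98 CPM in clone 1, 46.5 and 43.4 CPM in clone 2 and 38.4 and 38.3 CPM in control cells in 3D. On plastic its level was 33.3 and 20.4 CPM in clone 1, 34.0 and 32.7 CPM in clone 2 and 16.6 and 21.6 CPM in control cells. In collagen the order was clone 2, control, clone 1 without overlap, and on plastic clone 2 lay above control while the 2 libraries of clone 1 reached from control to clone 2. In 3D against 2D, Ccnd2 was at 0.24 ± 0.13 in clone 1 (adjusted p = 0.0995) and rose by 0.43 ± 0.12 in clone 2 (adjusted p = 0.00254) and 1.00 ± 0.14 in control cells (adjusted p = 2.15e-07). Against control it was at -0.26 ± 0.12 in clone 1 (adjusted p = 0.0746) and 0.23 ± 0.12 in clone 2 (adjusted p = 0.141) in 3D, and rose by 0.50 ± 0.15 (adjusted p = 0.00844) in clone 1 and 0.81 ± 0.14 (adjusted p = 8.36e-05) in clone 2 in 2D. The rise in clone 1 in 2D was 0.33 without control 2D replicate 1 and 0.10 without clone 1 2D replicate 1, neither past the threshold, and 0.80 without clone 1 2D replicate 2. The change of clone 1 in 3D against 2D passed the threshold with DESeq2 size factors (0.31, adjusted p = 0.0335) and with DESeq2's own test (0.32, adjusted p = 0.0434), and was 0.65 without clone 1 2D replicate 1 (adjusted p = 0.000105) and -0.05 without clone 1 2D replicate 2. Fitted on the 3D libraries alone, the values against control in 3D were -0.27 in clone 1 (adjusted p = 2.68e-05) and 0.23 in clone 2 (adjusted p = 0.000332). The clone 1 value also passed without control 2D replicate 1 or 2 or clone 1 2D replicate 1 or 2 (-0.26 each), and the clone 2 value without clone 1 2D replicate 1 or 2 (0.23 each).

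Ccnd3, which encodes cyclin D3, lies on chromosome 17 (mm10, 47505051 to 47599691, plus strand). It had 49.5 and 44.9 CPM in clone 1, 34.5 and 33.4 CPM in clone 2 and 38.7 and 42.5 CPM in control cells in 3D. On plastic, Ccnd3 had 41.6 and 39.8 CPM in clone 1, 26.4 and 31.8 CPM in clone 2 and 30.4 and 31.6 CPM in control cells. Clone 1 was highest in each format without overlap, and clone 2 lay below control in 3D and overlapped it in 2D. Against control, Ccnd3 rose in clone 1 by 0.22 ± 0.08 in collagen (adjusted p = 0.0363) and 0.39 ± 0.10 on plastic (adjusted p = 0.00196). In clone 2 it was at -0.26 ± 0.09 in collagen (adjusted p = 0.0219) and -0.10 ± 0.10 on plastic (adjusted p = 0.465). The median over chromosome 17 was 0.26 in collagen and 0.23 on plastic in clone 1, and -0.13 in collagen in clone 2, and with chromosomes centred the called values became -0.05 (adjusted p = 0.701) and 0.17 (adjusted p = 0.211) in clone 1 and -0.12 (adjusted p = 0.317) in clone 2. The clone 1 call in 3D was also lost without control 3D replicate 1 (0.14) or 2 (0.28), clone 1 3D replicate 1 (0.13), clone 2 3D replicate 1 (0.22) or clone 2 3D replicate 2 (0.20). The clone 2 call in 3D was lost without control 3D replicate 2 (-0.19), clone 2 3D replicate 1 (-0.28) or clone 2 3D replicate 2 (-0.24), and with DESeq2 (-0.25, adjusted p = 0.0566).

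In 3D against 2D, Ccnd3 rose by 0.21 ± 0.09 in clone 1 (adjusted p = 0.0339), 0.23 ± 0.09 in clone 2 (adjusted p = 0.0239) and 0.39 ± 0.09 in control cells (adjusted p = 0.000443). The Ccnd3 values of the clones missed the threshold with chromosomes centred, at 0.15 in clone 1 and 0.16 in clone 2. They also missed it without clone 1 2D replicate 2 (0.18) or clone 1 3D replicate 1 (0.15) in clone 1, and without clone 2 2D replicate 1 (0.10) or clone 2 3D replicate 1 (0.22) in clone 2, where the value without clone 2 2D replicate 2 was 0.37. Bysl overlaps 4.11% of the Ccnd3 exon length and had 21.8 to 45.2 CPM in 3D and 44.9 to 72.2 CPM in 2D.

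**Figure D3:**
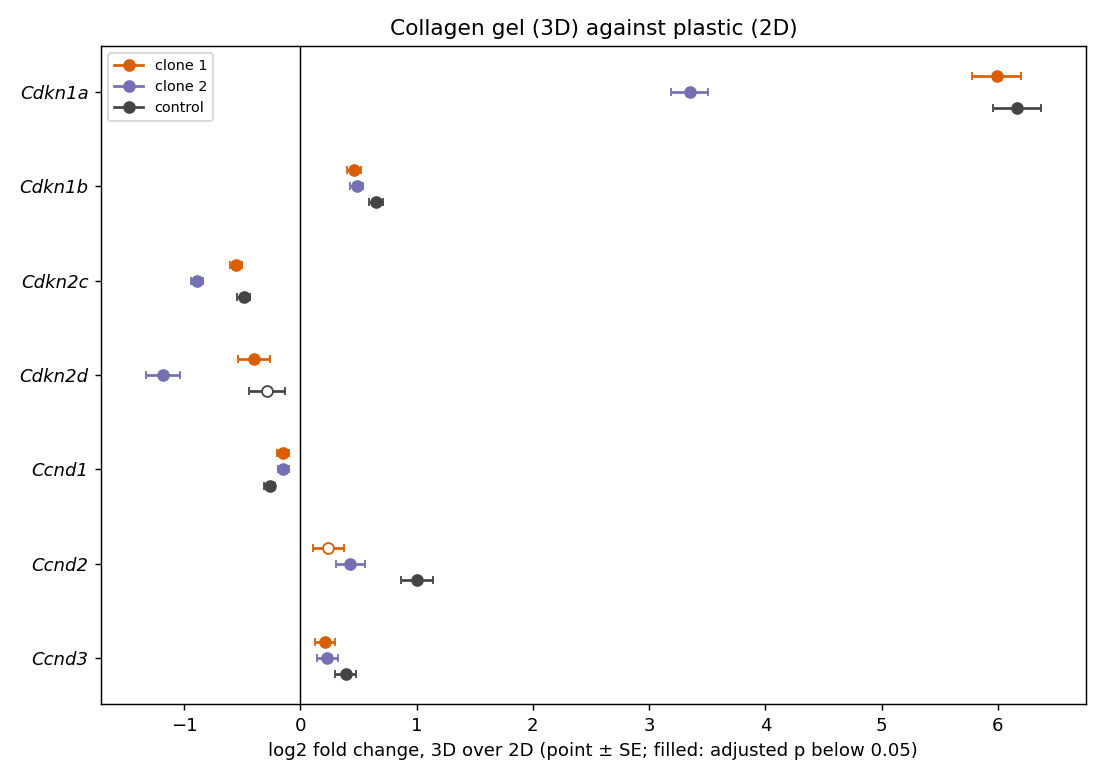
Log2 fold change of 3D over 2D (horizontal axis, point ± SE, n = 2 libraries per group) of the 7 tested members in clone 1, clone 2 and control cells, filled where the adjusted p is below 0.05. Cdkn1a stands apart at 5.99, 3.35 and 6.16, and the other members lie between -1.18 and 1.00.

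Counted over the 7 tested members, 3 rose and 3 fell in 3D against 2D in clone 1, 4 rose and 3 fell in clone 2, and 4 rose and 2 fell in control cells. Of all genes tested, 75.1%, 79.5% and 77.2% were called in these comparisons, so the members' share is near the background. Against control, 4 members rose and 0 fell in clone 1 in 3D, where 45.1% of all genes were called, and 22.0% were called higher. In clone 2 in 3D, Cdkn1b and Cdkn2c rose and Cdkn1a and Ccnd3 fell, beside 29.2% of all genes called and 17.4% called lower. In 2D, 5 rose and 0 fell in clone 1 beside 39.8% of all genes called and 19.8% called higher, and 5 rose and 0 fell in clone 2 beside 33.9% and 18.9%. The median log2 change of the tested members against control was 0.22 in clone 1 in 3D, 0.39 in clone 1 in 2D and 0.57 in clone 2 in 2D, with medians over all genes of 0.00, 0.00 and 0.02. In clone 2 in 3D it was 0.0040, with 0.0038 over all genes. Both clones are set against the same control libraries, so calls shared by the clones are not independent.

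**Figure D4:**
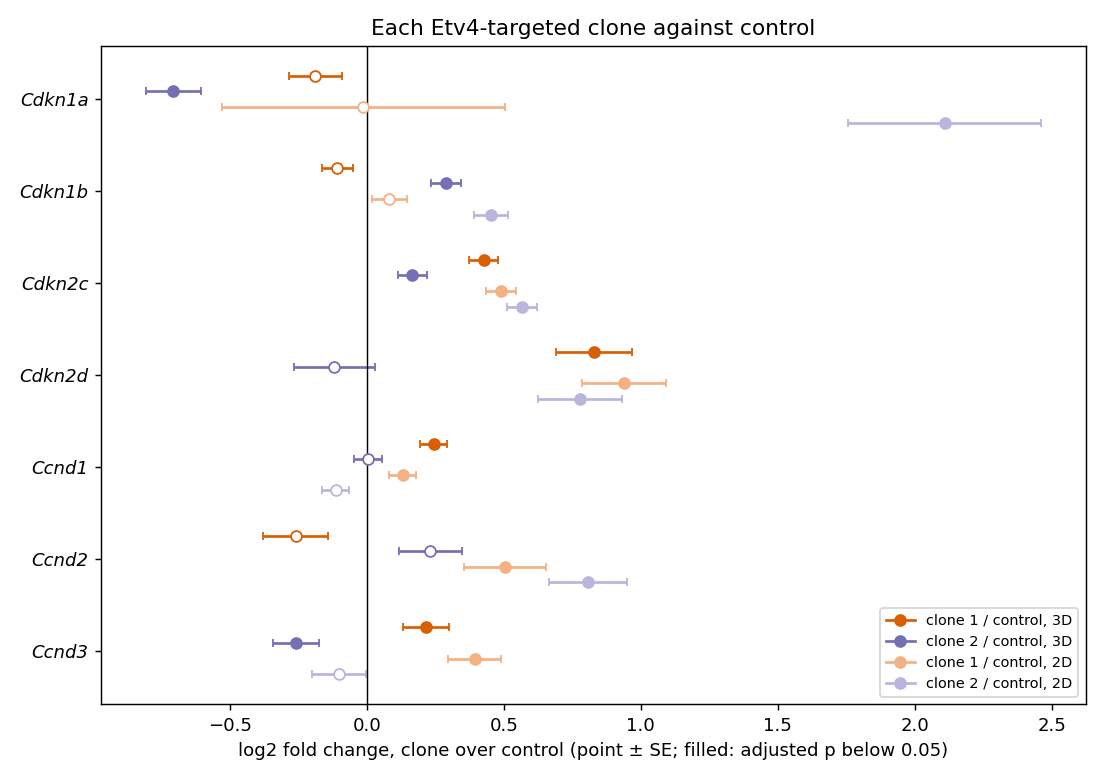
Log2 fold change of each clone over control in each format (horizontal axis, point ± SE, n = 2 libraries per group) for the 7 tested members, filled where the adjusted p is below 0.05. Cdkn2c is right of 0 in all 4 comparisons, and Cdkn1a of clone 2 lies at -0.71 in 3D and at 2.11 in 2D.

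Set directly against each other, the clones differed in all 7 tested members in 3D, where 54.9% of all genes were called. Clone 2 was higher than clone 1 in Ccnd2 (0.49 ± 0.12, adjusted p = 0.00081) and Cdkn1b (0.40 ± 0.06, adjusted p = 1.14e-06). It was lower in Cdkn2d (-0.95 ± 0.14, adjusted p = 1.99e-06), Cdkn1a (-0.52 ± 0.10), Ccnd3 (-0.47 ± 0.08), Cdkn2c (-0.26 ± 0.05) and Ccnd1 (-0.24 ± 0.05). With chromosomes centred, 3 of these 7 calls were left, Cdkn1b (0.15), Cdkn2c (-0.52) and Cdkn2d. Of all 13763 genes, 3007 were then called higher and 3448 lower, with 7553 called in the main analysis. In 2D, where 41.6% of all genes were called, Cdkn1a (2.12 ± 0.36) and Cdkn1b (0.37 ± 0.06) were higher in clone 2 than in clone 1, and Ccnd3 (-0.50 ± 0.10) and Ccnd1 (-0.24 ± 0.05) were lower. The Cdkn1a value in 2D was 3.21 without clone 1 2D replicate 2. With chromosomes centred, Cdkn1b (0.10, adjusted p = 0.211) and Ccnd3 (-0.20, adjusted p = 0.117) missed the threshold in 2D. Ccnd2, at 0.30 ± 0.14 (adjusted p = 0.0797), rested on the clone 1 libraries, at 0.71 without clone 1 2D replicate 1 (adjusted p = 0.000174) and 0.0036 without clone 1 2D replicate 2 (adjusted p = 1). It passed narrowly without control 2D replicate 1 (0.30, adjusted p = 0.048) or 2 (0.30, adjusted p = 0.0484), and was 0.04 with chromosomes centred. Cdkn2c, at 0.08 ± 0.05 on plastic (adjusted p = 0.269), was at -0.21 with chromosomes centred (adjusted p = 0.00294).

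The clone effect differed between formats for 4 members in clone 2 and 1 in clone 1, with the interaction tested itself. For clone 2, where 22.2% of all genes were called, these were Cdkn1a, Cdkn2d, Cdkn2c (-0.40 ± 0.08, adjusted p = 0.000351) and Ccnd2 (-0.57 ± 0.18, adjusted p = 0.025), and each of these 4 was negative, which means that the clone stood lower relative to control in collagen than on plastic. For clone 1, where 7.02% of all genes were called, it was Ccnd2 (-0.76 ± 0.19, adjusted p = 0.0129). The interactions share the control libraries. That of Ccnd2 in clone 1 missed the threshold without control 2D replicate 1 (-0.59), clone 1 2D replicate 1 (-0.36), control 3D replicate 1 (-0.77) or 2 (-0.78), or clone 1 3D replicate 2 (-0.68). That of Ccnd2 in clone 2 missed it without control 2D replicate 1 (-0.40), clone 2 2D replicate 1 (-0.55), control 3D replicate 1 (-0.58) or 2 (-0.59), clone 1 3D replicate 2 (-0.54) or clone 2 3D replicate 2 (-0.53), and with chromosomes centred (-0.52, adjusted p = 0.0505). Ccnd1 in clone 2, at 0.12 ± 0.07 (adjusted p = 0.256), was called with chromosomes centred, at 0.23 (adjusted p = 0.0247). Both of these Ccnd1 values were positive, unlike those of the 4 members called in clone 2.

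Most E2F targets and kinase partners of the cell cycle were lower in 3D than in 2D, and most E2F targets were lower in clone 2 than in control cells in 3D. Genes of both lists were also called in the other comparisons with control, as given below. Of 18 E2F targets, genes of DNA replication and nucleotide supply that E2F factors switch on before S phase, 1 rose and 15 fell in 3D against 2D in clone 1, 1 and 17 in clone 2, and 1 and 17 in control cells, with median log2 changes of -0.50, -1.21 and -0.70. Over all genes these medians were 0.08, 0.11 and 0.10, and 35.3%, 37.0% and 35.6% were called lower. Against control in 3D, 16 of the 18 fell and 0 rose in clone 2, with a median of -0.35, where 17.4% of all genes were called lower, while 7 rose and 3 fell in clone 1 with a median of 0.07, where 45.1% of all genes were called. The smallest p-values in clone 2 in 3D belonged to the replication helicase genes Mcm3 (-0.95 ± 0.05), Mcm6 (-0.92 ± 0.05) and Mcm4 (-0.57 ± 0.05). In clone 1 in 3D they belonged to Rrm2 (0.71 ± 0.06), which encodes a ribonucleotide reductase subunit, Mcm7 (0.42 ± 0.05) and Tyms (0.39 ± 0.06), which encodes thymidylate synthase. In 2D against control the list split, with 5 higher and 7 lower in clone 1 and 5 higher and 6 lower in clone 2, beside 39.8% and 33.9% of all genes called. The interaction of clone 2 and format was called for 15 of the 18, with 1 higher and 14 lower and a median of -0.47, beside -0.06 over all genes, of which 14.8% were called lower.

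The kinase partners were 11 tested genes, CDKs (Cdk7 among them) with the E, A and B cyclins and Ccnh, which encodes cyclin H. In 3D against 2D, 9 fell and 2 rose, Cdk6 and Ccnh, in each of clone 1, clone 2 and control cells. Of all genes, 35.3%, 37.0% and 35.6% were called lower there. Cdk1 (-1.38 ± 0.05), which drives mitosis, and the mitotic and S-phase cyclin genes Ccnb1 (-1.33 ± 0.05) and Ccna2 (-1.25 ± 0.05) had the smallest p-values in control cells. The 2 direct partners of the D cyclins moved apart: Cdk4 fell by 0.70 in clone 1, 0.94 in clone 2 and 0.54 in control cells on the log2 scale, and Cdk6 rose by 0.93, 1.01 and 1.04. Against control in 3D, 0 rose and 3 fell in clone 2 (Ccnb1 at -0.38, Ccna2 at -0.36 and Ccnb2 at -0.28), beside 29.2% of all genes called. In clone 1 in 3D 5 rose and 2 fell, beside 45.1%. Against control in 2D, 7 rose and 0 fell in clone 2, where 33.9% of all genes were called and 18.9% called higher. In clone 1 in 2D 3 rose and 2 fell, near the 39.8% of all genes called.

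**Figure D5:**
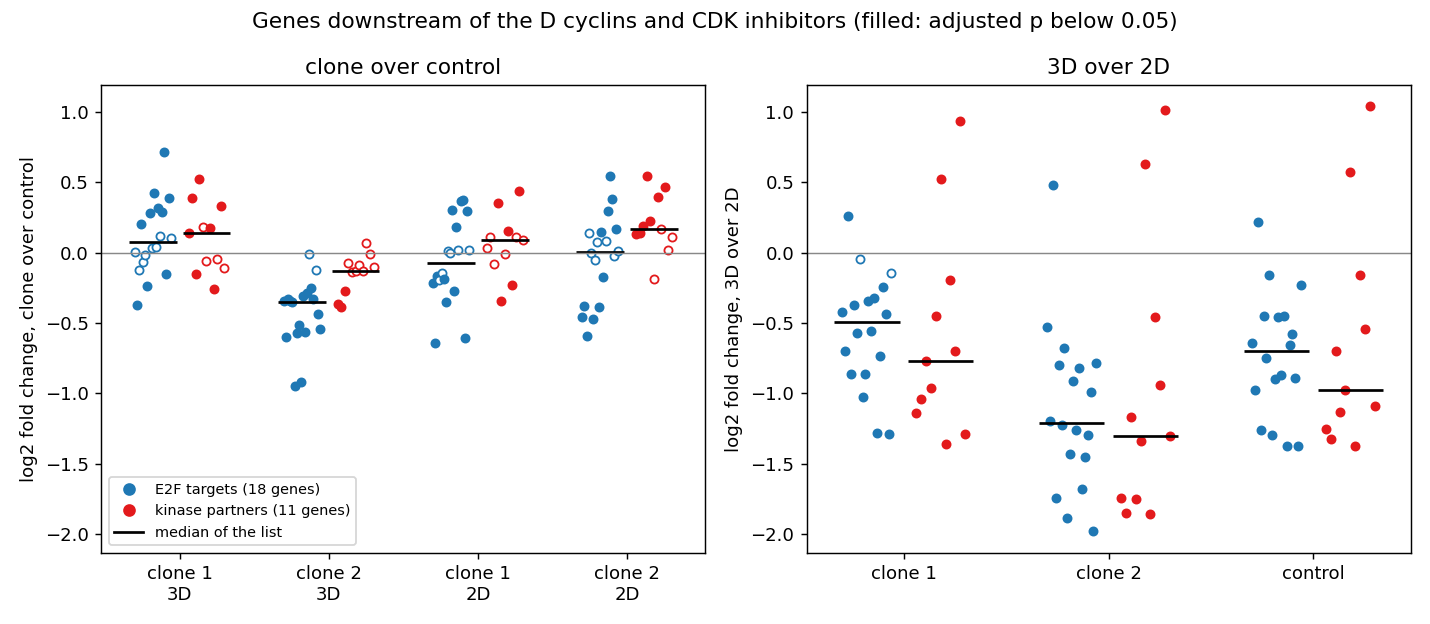
Log2 fold changes (vertical axes) of 18 E2F targets and 11 kinase partners, 1 point per gene, for each clone over control (left) and for 3D over 2D (right), with a bar at each list's median and filled points where the adjusted p is below 0.05. The E2F targets of clone 2 in 3D have their median at -0.35, and those in 3D over 2D have theirs at -0.50, -1.21 and -0.70 in clone 1, clone 2 and control cells.

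The retinoblastoma-family, E2F and partner genes were split. Of 13 tested, 8 rose and 2 fell in 3D against 2D in clone 1, 7 and 5 in clone 2, and 6 and 3 in control cells, beside 75.1%, 79.5% and 77.2% of all genes called. E2f1, an activator E2F, was at 2.15 ± 0.10 and E2f8, an atypical repressor of the family, at 1.46 ± 0.07 in control cells, and the partner gene Tfdp1 was at -0.76 ± 0.05. In clone 2 against control in 3D, 1 rose and 5 fell beside 29.2% of all genes called, led by E2f8 at -0.62 ± 0.06. Of 6 other genes with CDK-inhibitor or antiproliferative roles, 5 rose and 1 fell in 3D against 2D in clone 1, 4 and 0 in clone 2, and 5 and 1 in control cells, where Btg1 (1.78 ± 0.05), Ccng2 (1.30 ± 0.11) and Hexim1 (1.02 ± 0.09) had the smallest p-values.

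Among 9761 genes with a mean of at least 5 CPM, those with the pattern most like the 3 widest-ranging members over the 12 libraries are given as a description. For Cdkn1a they were Atp2b1 (Pearson r = 0.991 of log2 CPM) and Mfsd4a (r = 0.989). Mfsd4a had means of 77.6 CPM in clone 1, 61.2 in clone 2 and 83.0 in control cells in 3D, and 0.0803, 0.430 and 0.0674 in 2D, while Atp2b1 changed less, with 279, 268 and 266 CPM in 3D and 152, 181 and 149 CPM in 2D. For Cdkn2d they were Cdipt (r = 0.967) and Ttl (r = 0.966), and for Ccnd2 AI314180 (r = 0.953) and Pabpc4 (r = 0.950). The libraries share format and depth, which these values do not separate from the pattern itself.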

How the data were processed

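Polyadenylated RNA of 12 libraries was analysed. The authors deposited raw counts of reads for each gene symbol, with 1 table per format. The submitters' processing notes name mm10, FastQC 0.11.9, STAR 2.7.9a, featureCounts, R 4.1.1 and Cell Ranger 3.0.0, whose roles and strand setting are not given in the sources used here, so genes with overlapping exons are uncertain. The tables were joined by symbol. Genes were kept by filterByExpr, scaled by TMM and fitted with edgeR 4.0.16 (limma 3.58.1, R 4.3.3) as 6 group means, with 6 residual degrees of freedom and a common biological variation (BCV) of 4.52%, and compared in 11 comparisons. Tests were two-sided with Benjamini-Hochberg adjustment at 0.05. On simulated counts for clone 1 against control in 2D (13275 genes), 72% of 100 genes changed by 1 log2 unit and 85% of 100 changed by 2 were recovered. Each gene was simulated at its mean level over all 12 libraries. The shares therefore do not hold for genes that are low on plastic only, such as Cdkn1a. Replicates differed beyond sampling noise (chi-square per degree of freedom 3.51 to 9.51). The total per library limits precision to the floors given, which cover counting error only. DESeq2 1.42.0, other scalings and filters, chromosome centring, 1 format alone, a replicate block and leaving out each library were alternatives. Lengths, positions and overlaps are from GENCODE for mm10. The members, gene lists and the rule for named genes (all members, and per list up to 3 genes with the smallest adjusted p, others by role) were chosen with earlier results of these data known.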

Additional observations from a re-analysis of the deposited data

Results flagged for a closer look

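The difference between clone and control changed with format for 5 results, by the test of the interaction (the log2 change of clone over control in 3D minus that in 2D). In clone 2 the interaction was -2.82 ± 0.36 for Cdkn1a, -0.90 ± 0.21 for Cdkn2d, -0.40 ± 0.08 for Cdkn2c and -0.57 ± 0.18 for Ccnd2. In clone 1 it was -0.76 ± 0.19 for Ccnd2. The Cdkn1a value is the one with both a change of sign and 2 called parts, lower than control in collagen and higher on plastic. Its plastic part rests on 47 and 59 counts in clone 2 and 8 and 14 counts in control cells.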

How the results depend on the processing

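Of 77 tests of a member in a comparison, 53 were called, and 32 of these calls were kept in direction and threshold in every alternative. With chromosomes centred, the members called were 3 for clone 1 on plastic against control (5 in the main analysis), 1 for clone 2 in collagen against control (4) and 3 between the clones in collagen (7). Over all 13763 genes, centring gave 2164 higher and 2085 lower in the first of these, with 5471 called in the main analysis. In the second it gave 1278 and 1995 (4023), and in the third 3007 and 3448 (7553). With the 3D libraries alone, 7 members were called in clone 1 against control in 3D (4). Calls over all genes rose as well, to 3880 higher and 4285 lower of 13728 tested, with 6201 of 13763 called in the main analysis. Leaving out 1 library gave 3 to 5 called for clone 1 on plastic, 2 to 5 for clone 2 in collagen, and 0 to 1 in the interaction of clone 1. The sign turned with chromosomes centred for Ccnd1 in clone 1 in 2D (-0.00327), Ccnd3 in clone 1 in 3D (-0.0486), Ccnd1 in clone 2 in 3D (-0.0195) and Cdkn2c in clone 2 against clone 1 in 2D (-0.209). It turned with 1 format alone for Cdkn1a in clone 1 in 2D (0.00468) and Ccnd1 in clone 2 in 3D (-0.00016). Among values that missed the threshold, leaving out 1 library gave -1.10 to 0.67 for Cdkn1a in clone 1 in 2D, -0.235 to 0.0356 for Ccnd3 in clone 2 in 2D, -0.283 to 0.0314 for Cdkn2d and -0.0308 to 0.0375 for Ccnd1 in clone 2 in 3D, -0.575 to 0.0786 for Cdkn2d in control cells in 3D against 2D, -0.0543 to 0.652 for Ccnd2 in clone 1 in 3D against 2D, and -0.86 to 0.91 for Cdkn1a and -0.47 to 0.18 for Cdkn2d in the interaction of clone 1. The cause was not tested. Where a group was left with 1 library, that library is assumed to vary like the other groups. Same-numbered libraries did not pair (correlations of deviations -0.12 to 0.16 over 15 pairs of groups), and the replicate block changed 1 of the 77 results, Ccnd1 in clone 1 in 2D (0.13, adjusted p = 0.0506), and moved no count of calls by over 1.5 times. The low counts of Cdkn1a on plastic limit its values there, and the counts of Cdkn1c, Cdkn2a and Cdkn2b allow no comparison.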
